A study of Mus musculus with 9 samples.

Results

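The Kmt2 family of histone methyltransferases was taken as the 5 genes that the deposited tables name Kmt2a, Kmt2b, Kmt2c, Kmt2d and Kmt2e, out of 22442 genes with counts. The members were chosen by their enrichment over input, which was already known, so every value of a member against input is given below as a description, with no test. Values of the isoform with exon 5 against the isoform without it did not choose the members and are tested.

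The study used iCLIP on Chtop, a nuclear protein of mRNA export: ultraviolet light links RNA to protein, an antibody recovers the protein, and the attached RNA fragments are sequenced. N2a is a mouse neuroblastoma line. N2a Flp-In rtTA lines carried a doxycycline-inducible FLAG-Chtop cDNA, were induced with 2 µg/mL doxycycline for 24 hours and were crosslinked at 0.15 J/cm2. The isoform with exon 5 gave 3 anti-FLAG libraries, the isoform without exon 5 gave 3, and 3 size-matched inputs were made from 2% of the lysate without the antibody step. The isoforms were tagged proteins expressed from a cDNA, and the labels name no deletion of the cell's own Chtop. Per the labels, input replicate 1 came from the line without exon 5, input replicate 2 from the line with exon 5, and input replicate 3 from a FLAG-GFP line. Replicates were harvested on separate days. A count in these libraries measures RNA recovered at the size of the protein complex, so RNA abundance and binding cannot be told apart from it alone.

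Kmt2 enzymes add methyl groups to lysine 4 of histone H3 (H3K4), a mark of active promoters and enhancers. They work in COMPASS complexes, named after the yeast complex, with a shared core of Wdr5, Rbbp5, Ash2l and Dpy30. Kmt2a and Kmt2b act with menin, largely at promoters and developmental genes; Kmt2c and Kmt2d act with the H3K27 demethylase Kdm6a and with Ncoa6, Paxip1 and Pagr1a, largely at enhancers; and Kmt2e binds methylated H3K4 and is not known as an active H3K4 methyltransferase.

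The isoform libraries held 624062 to 1844970 counts and the inputs 75504 to 173342, so 3 counts corresponded to 2.10 to 5.51 CPM in the isoform libraries and to 16.3 to 21.1 CPM in the inputs (CPM are counts relative to library size, here adjusted by TMM, the trimmed mean of M-values). The CDS took 66.1% to 68.8% of counts in the isoform libraries and 45.4% to 47.6% in the inputs. Of 12 markers of neuroblastoma and neurons, the deposited tables name 8, and their summed level was 1779 to 2494 CPM with exon 5, 1619 to 1693 CPM without it and 852 to 2299 CPM in the inputs. The 1 named marker of blood and the 1 named marker of epithelium and liver had no count in any library. Summed glial markers (2 of 4 named) reached at most 37.6 CPM, and those of fibroblasts and endothelium (4 of 5 named) at most 70.4 CPM, in an input.

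Together the 5 genes took 0.730%, 1.00% and 0.991% of all counts in the libraries with exon 5 and 0.859%, 0.932% and 0.920% in those without it, against 0.100%, 0.183% and 0.257% in the inputs. Every isoform library stood above every input, and the 2 isoforms overlapped. The group means were 0.907% ± 0.153 with exon 5, 0.903% ± 0.0389 without it and 0.180% ± 0.0785 in the inputs (SD, n = 3 each). Kmt2d alone made up 52.2% to 58.9% of the family's counts in the isoform libraries and 43.8% to 52.7% in the inputs. All 5 members had groups that did not overlap with the inputs for either isoform, as did 33.1% of the 8342 tested genes with exon 5 and 35.9% without it. The members' median log2 fold change over input was 3.19 with exon 5 and 3.07 without it, where the median of all tested genes was 1.03 for each isoform.

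**Figure D1:**
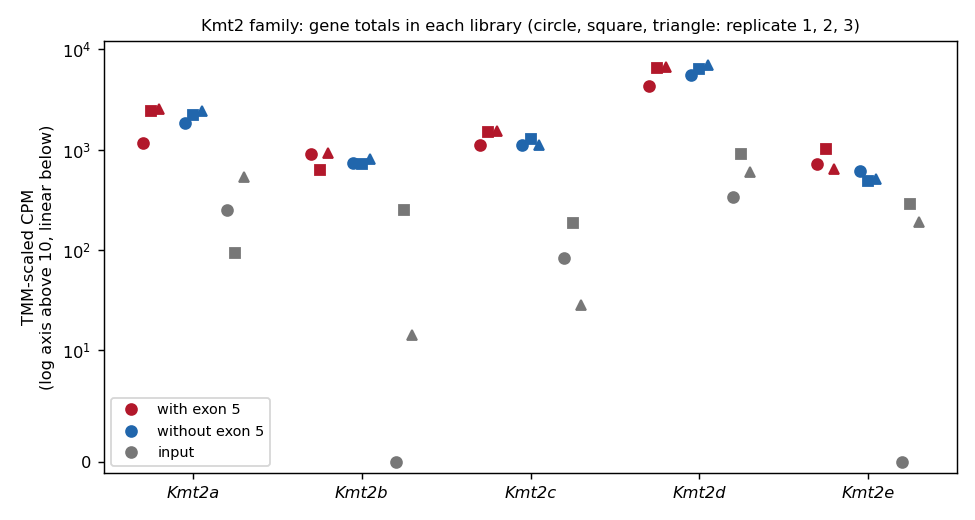
Scaled level of the gene totals of the 5 members (vertical axis, TMM-scaled CPM, logarithmic above 10) in each library. Points are libraries, coloured by group. For each gene the 6 isoform libraries lie above the 3 inputs, Kmt2d is the highest, and input replicate 1 held no count of Kmt2b or Kmt2e.

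Kmt2d (ENSMUSG00000048154.17; chromosome 15, 98831669 to 98874077 in GRCm38.p6; CDS of 16869 bases), the main H3K4 monomethyltransferase of enhancers with Kmt2c, had 2989, 4612 and 7160 counts with exon 5 and 3011, 5367 and 9995 without it, against 56, 167 and 85 in the inputs. By count it ranked 5, 5 and 5 among all genes in the libraries with exon 5 and 5, 6 and 6 in those without it, against 356, 71 and 121 in the inputs. Kmt2d was thus among the most counted genes in every isoform library. The scaled level of Kmt2d averaged 5850 ± 1371 CPM with exon 5, 6279 ± 730 CPM without it and 615 ± 287 CPM in the inputs, a log2 fold change over input of 3.25 and 3.35. With a length trend removed, as described below, these values were 1.27 and 1.48, where the medians of all tested genes were -0.48 and -0.56.

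Kmt2c (ENSMUSG00000038056.15; chromosome 5, 25271795 to 25498855; CDS of 14877 bases), the paralogue of Kmt2d in the same kind of complex, had 774, 1048 and 1630 counts with exon 5 and 609, 1084 and 1608 without it, against 14, 34 and 4 in the inputs. Its log2 fold change over input was 3.78 with exon 5 and 3.55 without it, and 2.14 and 2.02 with the length trend removed. The order of the members by this value changed with the setting: Kmt2b was above Kmt2c without input replicate 2 (6.97 and 6.87, against 4.65 and 4.44 for Kmt2c), and Kmt2a without input replicate 3 (3.58 and 3.68, against 3.36 and 3.13). Kmt2b was also above Kmt2c with voom of limma (5.04 and 4.94, against 4.12 and 3.85). The same was so with a replicate block by titles (4.16 and 3.96, against 3.97 and 3.73) and by header numbers (4.17 and 4.14, against 3.96 and 3.70). Kmt2c levels averaged 1375 ± 234 CPM with exon 5 and 1173 ± 88.1 CPM without it, against 99.2 ± 79.6 CPM in the inputs.

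Kmt2a (ENSMUSG00000002028.13; chromosome 9, 44803355 to 44881352; CDS of 11998 bases), the trithorax homologue that keeps Hox genes active and is rearranged in leukaemia, had 816, 1702 and 2711 counts with exon 5 and 1009, 1894 and 3477 without it, against 42, 17 and 76 in the inputs. The first library with exon 5 was the lowest of the isoform libraries, at 1165 CPM. The group levels were 2044 ± 763 CPM with exon 5 and 2171 ± 293 CPM without it, against 293 ± 224 CPM in the inputs. The log2 fold changes over input were 2.80 and 2.89, but only 0.09 and 0.26 with the length trend removed. The medians of all tested genes were -0.48 and -0.56 in that setting.

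Kmt2b (ENSMUSG00000006307.16; chromosome 7, 30568855 to 30589056; CDS of 8166 bases), the closest relative of Kmt2a, had 639, 443 and 979 counts with exon 5 and 396, 611 and 1158 without it, against 0, 46 and 2 in the inputs. The inputs were thus low in 2 of 3 libraries and 46 of their 48 counts came from replicate 2. The log2 fold change over input was 3.19 with exon 5 and 3.07 without it, 6.97 and 6.87 without that input library, and 1.82 and 1.74 with the length trend removed. Levels were 820 ± 163 CPM and 752 ± 50.5 CPM for the isoforms with and without exon 5, against 88.2 ± 141 CPM in the inputs.

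Kmt2e (ENSMUSG00000029004.15; chromosome 5, 23433036 to 23504235; CDS of 5807 bases), the most divergent member, had 505, 711 and 680 counts with exon 5 and 336, 413 and 727 without it, against 0, 53 and 27 in the inputs. Its log2 fold change over input was 2.31 with exon 5 and 1.75 without it, below the other members, but this place was not kept: with voom and exon 5 it was 3.77, above Kmt2a at 3.17 and Kmt2d at 3.31, and without input replicate 2 Kmt2a was lower (2.43 and 2.54, against 3.12 and 2.59 for Kmt2e). With the length trend removed its values were 0.15 and -0.39, above the medians of all tested genes (-0.48 and -0.56). The direction of Kmt2e without exon 5 thus turned against 0, but not against that median. Its levels were 791 ± 198 CPM with exon 5 and 537 ± 70.4 CPM without it, against 160 ± 147 CPM in the inputs.

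Within each gene most counts lay in the CDS, which was also most of the summed part length. It was 5807 of 6264 bases for Kmt2e, 8166 of 8481 for Kmt2b and 14877 of 15082 for Kmt2c. The CDS held 81.8% ± 1.60 of Kmt2e counts with exon 5 and 88.8% ± 3.94 without it (SD, n = 3 each). Only the CDS had an entry in the deposited part tables for Kmt2a and Kmt2d, so their totals are CDS counts. Kmt2b had a 3′ UTR entry of 315 bases with 0, 7 and 80 counts with exon 5 and 27, 38 and 102 without it, against 0 in each input. The 3′ UTR entry of Kmt2c, of 205 bases, had 25, 24 and 76 counts with exon 5 and 15, 29 and 110 without it, again against 0 in each input. Set against 3 counts per input library, the Kmt2c 3′ UTR was at least 2.54-fold higher with exon 5 and at least 2.50-fold higher without it. The Kmt2b 3′ UTR was at least 2.99-fold higher without exon 5. With exon 5 it overlapped the inputs, at 0, 9.99 and 74.9 CPM, with all but 7 of its counts in replicate 3, and no fold is given. The CDS held 96.7% ± 4.33 of Kmt2b counts with exon 5 and 92.7% ± 1.36 without it, and 96.6% ± 1.19 and 96.0% ± 2.47 of Kmt2c counts (SD, n = 3 each). Per kilobase, the Kmt2e 5′ UTR had 311 ± 58.3 CPM with exon 5 and 129 ± 31.9 without it, against 112 and 82.4 for its CDS. The Kmt2c 3′ UTR had 229 ± 102 and 225 ± 131, against 89.3 and 75.7 for its CDS. The Kmt2b 3′ UTR had 89.8 ± 129 with exon 5, under its CDS at 97.0, and 175 ± 45.1 without it, over its CDS at 85.3.

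Per kilobase of CDS, the level of Kmt2d was 347 ± 81.3 CPM with exon 5 and 372 ± 43.3 CPM without it, above every other member in every library of the same isoform. Kmt2a came next, at 170 ± 63.6 CPM per kilobase with exon 5 and 181 ± 24.4 CPM per kilobase without it. With exon 5 its lowest library, at 97.1 CPM per kilobase, lay within the range of Kmt2e, Kmt2b and Kmt2c; without exon 5 they lay above all those of Kmt2b, Kmt2e and Kmt2c. The lower 3 members could not be ordered. Their levels with exon 5 were 112 ± 29.9 CPM per kilobase for Kmt2e, 97.0 ± 18.5 for Kmt2b and 89.3 ± 15.1 for Kmt2c, and without exon 5 they were 82.4 ± 14.1 CPM per kilobase for Kmt2e, 85.3 ± 4.45 for Kmt2b and 75.7 ± 6.79 for Kmt2c. In the inputs each member overlapped the next, from Kmt2d at 36.5 ± 17.0 to Kmt2c at 6.67 ± 5.35 CPM per kilobase. Among the 6376 genes with a tested CDS, whose median over the isoform libraries was 25.7 CPM per kilobase, Kmt2d ranked 22 at 360 CPM per kilobase and Kmt2c, the lowest member, ranked 629 at 82.5.

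**Figure D2:**
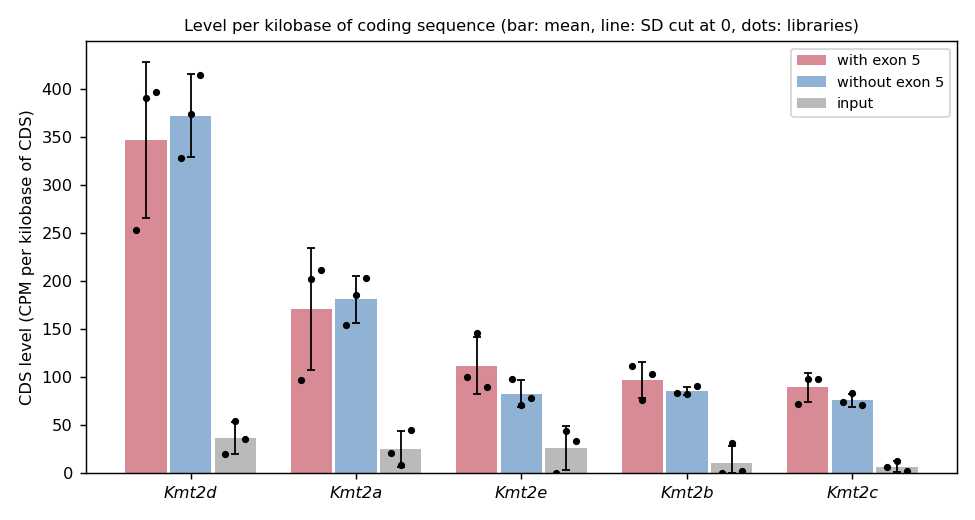
CDS level per kilobase of coding sequence (vertical axis) for the 5 members, ordered by the mean with exon 5. Bars are group means, lines the SD (n = 3, cut at 0) and dots the libraries. Kmt2d stood at 347 and 372 CPM per kilobase with and without exon 5, against 36.5 in the inputs.

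Whether exon 5 changed the recovery of the family's RNAs was asked by setting the isoforms against each other. No member passed the test. The log2 fold change of the isoform with exon 5 over the isoform without it was -0.10 for Kmt2d (SE 0.36, 95% interval -0.87 to 0.66) and -0.09 for Kmt2a (SE 0.54, interval -1.24 to 1.06). It was 0.23 for Kmt2c (SE 0.56, interval -0.97 to 1.43) and 0.13 for Kmt2b (SE 0.95, interval -1.90 to 2.15). The adjusted p of edgeR's quasi-likelihood test was 1.00 for each of these genes, and the directions of Kmt2a and Kmt2d turned, to 0.19 and 0.073, without the first library with exon 5. The intervals come from 1 fit of all 9 libraries, so the spread of the inputs enters them beside that of the isoform libraries. For Kmt2d a fall beyond -0.87 or a rise beyond 0.66 on the log2 scale lies outside the interval. For Kmt2b, with 0, 46 and 2 input counts, values from -1.90 to 2.15 lie inside it. With only the isoform libraries in the fit, the adjusted p of edgeR for these genes was 0.898 to 0.976.

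Over all genes, edgeR called 0 of 8342 gene totals between the isoforms (0%, and 93 at an unadjusted p under 0.05). DESeq2 called 0, and voom called 1 gene higher and 1 lower. With only the isoform libraries in the fit, edgeR called 1 gene higher and 1 lower of 7931. In the gene parts edgeR, with all 9 libraries in the fit, called 0 of 6376 CDS (0%, 82 unadjusted), 0 of 4984 3′ UTRs (0%, 93 unadjusted) and 0 of 661 5′ UTRs (0%, 12 unadjusted). The test of relative use of parts within a gene called 0 of 4163 genes (0%, 70 unadjusted). For the 3′ UTR the log2 fold change between the isoforms was -1.05 for Kmt2b (SE 1.49, interval -4.19 to 2.08) and -0.17 for Kmt2c (SE 1.23, interval -2.76 to 2.42), with adjusted p of 1.00 by edgeR for both. The authors' deposited table gives log2 values of -0.92 and 0.01 for the same parts and puts every CDS and 3′ UTR of the family in its class for both isoforms.

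**Figure D3:**
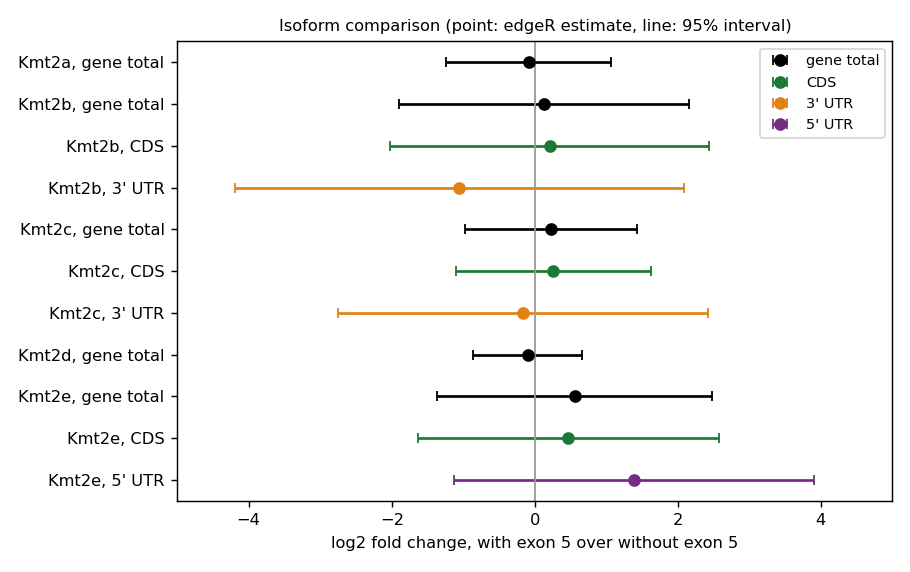
Log2 fold change of the isoform with exon 5 over the isoform without it (horizontal axis) for the gene totals and parts of the 5 members; Kmt2a and Kmt2d have a CDS only. Points are edgeR estimates and lines 95% intervals, all of which include 0.

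Kmt2e was the member furthest from 0. Its gene total was 791 ± 198 CPM with exon 5 and 537 ± 70.4 CPM without it, and the groups did not overlap, as was so in either direction for 13.9% of tested genes. The log2 fold change was 0.56 (SE 0.90, interval -1.37 to 2.48, adjusted p = 1.00 by edgeR). With only the isoform libraries in the fit it was also 0.56, with an adjusted p of 0.576 by edgeR. Kmt2e is also the member with a 5′ UTR entry, of 457 bases, which lies ahead of its coding sequence. That stretch had 100, 118 and 123 counts with exon 5 and 26, 64 and 76 without it, against 0, 6 and 0 in the inputs.

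The level of the Kmt2e 5′ UTR was 143, 168 and 115 CPM with exon 5 and 47.8, 75.3 and 53.2 CPM without it. The lowest library with exon 5 was thus above the highest without it. This also held for Kmt2e when scaled on the 5′ UTR counts alone. On that scale it held for 4.08% of the 661 tested 5′ UTRs in this direction. On the 5′ UTR table alone the log2 fold change was 1.39 (SE 1.19, interval -1.13 to 3.90, adjusted p = 1.00 by edgeR; 0.707 to 1.00 over the alternatives), and it ranked 52 of 661. The 5′ UTR held 19.8%, 16.6% and 18.1% of the gene's counts with exon 5 and 7.74%, 15.5% and 10.5% without it. The mean shares were 18.2% ± 1.60 and 11.2% ± 3.94 (SD, n = 3 each; two-sided exact permutation p = 0.1, the smallest that 3 against 3 libraries can give). The relative use of the Kmt2e 5′ UTR against the rest of the gene differed by a log2 of 0.71 (adjusted p = 1.00 by the edgeR test of relative use). In the authors' deposited table this 5′ UTR has a log2 value of 1.46 and the class of the isoform with exon 5, which 37 genes have, beside 62 in the class of the isoform without exon 5 and 309 in the class of both. By its heading, that class rests on a log2 cutoff and the same direction in all replicates. It names no p-value, so it is not the same criterion as the edgeR test.

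**Figure D4:**
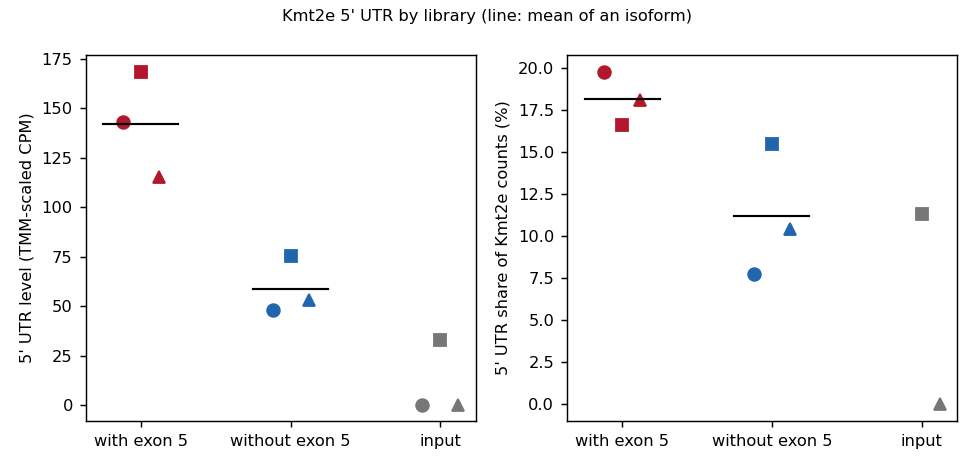
Kmt2e 5′ UTR in each library, as scaled level (left, TMM-scaled CPM) and as a share of the gene's counts (right, percent). Points are libraries and lines the means of the isoforms; input replicate 1 had no Kmt2e count and has no share. The libraries with exon 5 run from 115 to 168 CPM and those without it from 47.8 to 75.3 CPM.

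The members are long genes, and over all tested genes the enrichment over input was larger the longer the CDS. Among tested genes with a CDS under 1000 bases (n = 1670) the median log2 fold change over input was -0.30 with exon 5 and -0.29 without it, and 2.28% and 2.34% of them passed as higher. Among the 516 genes with a CDS over 5000 bases, to which all 5 members belong, the medians were 2.28 and 2.20, and 32.2% and 30.2% passed as higher. Against that class, Kmt2c, Kmt2d, Kmt2b and Kmt2a had larger values with both isoforms; Kmt2e, at 2.31, was close to it with exon 5 and at 1.75 lay under it without exon 5.

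For each member, the 3 named genes of nearest CDS length give a closer setting. All 3 neighbours of Kmt2d and all 3 of Kmt2c had smaller values with both isoforms. Mdn1, a ribosome assembly AAA ATPase with a CDS of 16767 bases, reached 3.16 with exon 5 and 2.88 without it, against 3.25 and 3.35 for Kmt2d. Ahnak, a giant scaffold protein gene, reached 2.44 and 2.88. Near Kmt2c, the cardiac calcium release channel gene Ryr2 reached 3.11 and 3.19, and Birc6, an inhibitor of apoptosis, 1.95 and 2.08. The 3 neighbours of Kmt2a, among them the presynaptic scaffold gene Bsn (3.46 and 3.25), lay at 3.02 or above with exon 5, all over Kmt2a, and 2 of 3 lay under it without exon 5. For Kmt2b 2 of 3 and for Kmt2e 1 of 3 neighbours lay under the member with each isoform. In all, 9 of 15 neighbours lay under their member with exon 5 and 11 of 15 without it. The members were chosen by enrichment over input and the neighbours were not, so this tally favours the members and tests nothing.

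The length trend of each library was also removed in the fit, taken on the summed length of a gene's parts and not on its CDS alone. The members' median was then 1.27 with exon 5 and 1.48 without it, where it had been 3.19 and 3.07. The median of all tested genes was then -0.48 and -0.56. What part length has in the members' levels was not tested further.

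**Figure D5:**
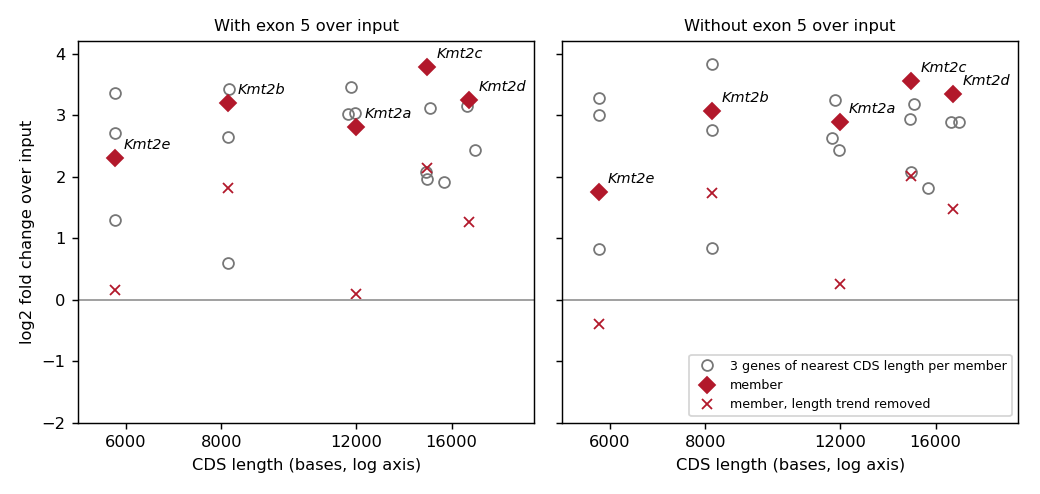
Log2 fold change over input (vertical axis) by CDS length (horizontal axis, log scale) for the isoform with exon 5 (left) and without it (right). Diamonds are the 5 members, open circles their 3 neighbours in CDS length, and crosses the members with the trend on summed part length removed. The diamonds of Kmt2c and Kmt2d lie above all their neighbours, and the crosses of Kmt2a and Kmt2e lie near 0 with exon 5.

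Genes with related roles were taken as 4 lists with 67 genes: partners of the Kmt2 and Setd1 complexes, other histone lysine methyltransferases (27 genes, most of them enzymes of other residues than H3K4), H3K4 demethylases and H3K4 readers. The deposited tables name 57 of them and 52 were tested. Against input, 9 of 52 (17.3%) were higher with exon 5 and 10 of 52 (19.2%) without it, 8 of them with both, and 0 were lower. Over all genes, 8.31% were higher and 0.863% lower with exon 5, and 8.12% higher and 0.587% lower without it. These calls depended on the libraries and on the scaling. With any isoform library left out, 1 listed gene was called with exon 5 and 1 to 3 without it, with an input left out 12 to 29 and 13 to 29 were called, and with only the compared groups in the fit 0 were called. With DESeq2 size factors 1 and 5 listed genes were called with and without exon 5, with library size alone 2 and 4, and with the length trend removed 1 and 2. Of the 11 genes called with either isoform, Bod1l kept its call with both isoforms under each of these 3 settings, and Cxxc1, Setd1a, Setd2, Ash1l, Dot1l and Kdm5a lost it under each of them. Names also bear on the counts, since 5315 genes take their symbol from the authors' isoform table, which lists genes with counts there, and 6403 from the table of part lengths. Of the listed genes with CDS over 5000 bases, 4 of 13 (30.8%) passed with exon 5 and 6 of 13 (46.2%) without it. Of all tested genes of that class, 32.2% and 30.2% passed as higher. Of the shorter listed genes, 5 of 39 (12.8%) and 4 of 39 (10.3%) passed. In the shorter classes of all tested genes, 2.28% to 11.4% passed as higher with exon 5 and 2.34% to 11.2% without it. Between the isoforms, 0 of 52 passed.

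Of the 15 tested partners of the complexes, 3 passed as higher with each isoform, 2 with exon 5 and 1 without it among the 6 that the length table names. Over all genes, 8.31% passed as higher with exon 5 and 8.12% without it. The partners' median log2 fold change was 1.91 with exon 5 and 2.27 without it. Bod1l, which protects replication forks together with the Setd1a complex, had 136, 326 and 713 counts with exon 5 and 173, 366 and 664 without it, against 0 in each input. It was at least 23.9-fold higher with exon 5 (adjusted p = 0.00366 by edgeR; higher in 3 of 3 libraries) and at least 21.9-fold higher without it (adjusted p = 0.00406 by edgeR; higher in 3 of 3), and its call held in every alternative but the fit of only the compared groups (adjusted p = 0.0866 and 0.0843). Kdm6a, the H3K27 demethylase of the Kmt2c and Kmt2d complexes, had 38, 19 and 97 counts with exon 5 and 39, 141 and 177 without it, against 0 in each input, and was at least 3.10-fold and at least 6.51-fold higher (adjusted p = 0.0340 and 0.0222 by edgeR). Cxxc1, which brings Setd1 complexes to unmethylated CpG islands, also had no input count and passed with exon 5 (at least 4.84-fold higher, adjusted p = 0.0369 by edgeR). Bod1l, Kdm6a and Cxxc1 thus passed the count filter through the isoform libraries alone. Their p-values against input are therefore a description and not independent support.

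The catalytic subunit Setd1a passed without exon 5 (2.70 on the log2 scale, SE 0.79, adjusted p = 0.0469 by edgeR) and had 2.43 with exon 5 (adjusted p = 0.0612 by edgeR). Its paralogue Setd1b had 3.19 with exon 5 and 2.86 without it, and the enhancer complex subunit Ncoa6 had 2.06 and 2.27, with no call. The host cell factor Hcfc1, a partner of the Kmt2a and Setd1 complexes, had 1.91 and 2.59, with no call. Of the shared core subunits, Dpy30 was not named in the deposited data and was not tested. The others, chosen for naming after their values were seen, also had no call. Wdr5 had log2 fold changes of -1.56 with exon 5 and -2.07 without it, Rbbp5 1.10 and 0.93, and Ash2l 1.77 and 1.86. Wdr5 had 71, 44 and 79 counts with exon 5 and 29, 66 and 51 without it, against 56, 13 and 42 in the inputs.

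Of the 20 tested other histone lysine methyltransferases, 4 passed with exon 5 and 5 without it, against 8.31% and 8.12% of all tested genes. Among the 10 that the length table names, 2 and 3 passed. The list's medians were 1.85 and 1.98. Setd2, which trimethylates lysine 36 of histone H3, had 847 ± 251 CPM with exon 5 and 645 ± 118 CPM without it, against 155 ± 60.7 CPM in the inputs (log2 fold change 2.44 and 2.05, adjusted p = 0.0275 and 0.0477 by edgeR). Ash1l, another enzyme of that residue, rose by 2.04 and 2.16 (adjusted p = 0.0488 and 0.0417 by edgeR). Setd5, a gene of intellectual disability, had 1657 ± 180 CPM with exon 5 and 2223 ± 464 CPM without it, against 153 ± 206 CPM in the inputs (3.42 and 3.85, adjusted p = 0.0357 and 0.0275 by edgeR). Smyd5 rose by 4.28 and 5.08 (adjusted p = 0.0462 and 0.0304 by edgeR), with 4 input counts in all. Setd5 and Smyd5 each had an input at 0 and could not pass the count filter through the inputs alone. Their p-values against input are therefore a description.

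Dot1l, the enzyme of lysine 79 of histone H3, passed without exon 5 (1.98, adjusted p = 0.0323 by edgeR) and had 1.56 with exon 5 (adjusted p = 0.0627 by edgeR). With the length trend removed, Setd2 without exon 5, Ash1l with exon 5 and Dot1l without exon 5 turned direction, to -0.044, -0.040 and -0.32. These values lay above the medians of all tested genes in that setting, -0.48 with exon 5 and -0.56 without it. The most counted genes of the list without a call were Nsd3 (log2 fold change 1.17 with exon 5 and 1.35 without it), Prdm2 (2.01 and 2.20) and Nsd2 (-0.33 and -0.53).

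Of the 6 H3K4 demethylases, Kdm5a, which removes methyl groups from trimethylated H3K4, passed with both isoforms, with 262, 206 and 211 counts with exon 5 and 110, 284 and 593 without it, against 0, 8 and 0 in the inputs (log2 fold change 4.23 and 4.36, adjusted p = 0.0429 and 0.0400 by edgeR). Kdm5c had 1.75 and 1.16, Kdm5b 1.26 and 2.07, and Kdm1a 0.21 and 0.11, with no call; the list's medians were 1.503 and 1.61. Of 11 tested readers, the PHD finger gene Phf13 passed with both isoforms, with no input count, at least 2.18-fold higher with exon 5 and at least 6.19-fold higher without it (adjusted p = 0.0417 and 0.0221 by edgeR). Each of these 2 lists thus had 1 call per isoform, where 8.31% of all tested genes passed with exon 5 and 8.12% without it. For the readers, 1 of 11 is near that share. The chromatin remodelling subunit Bptf had 2.25 and 2.50, Chd1 -0.0037 and 0.46, and Dido1 1.36 and 0.63, with no call, and the list's medians were 1.76 and 1.18. Of the called genes of these 4 lists, 11 in all, 4 had no input count and 7 had at least 1 input at 0. The 4 without an input count (Bod1l, Kdm6a, Cxxc1 and Phf13) passed the count filter through the isoform libraries alone. Setd5, Smyd5 and Kdm5a, each with an input at 0, could not pass it through the inputs alone. The calls of these 7 genes are therefore a description and not independent support.

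Across the 9 libraries the log2 levels of the members rose and fell with those of other genes, which is given as a description, since the libraries share 3 groups that differ in depth and in kind. Of 4599 other named genes with enough counts, the most alike to Kmt2d was Maml3 (r = 0.991), a Notch coactivator gene. The acetyltransferase gene Kat6a was the most alike to Kmt2c (r = 0.997), Tcf20 to Kmt2a (r = 0.992), the calcium channel gene Cacna1c to Kmt2b (r = 0.994) and the axon guidance gene Slit2 to Kmt2e (r = 0.995). Next came Fbxl20 and Gm42715 for Kmt2d, Sbf2 and Gse1 for Kmt2c, Unc13a and Herc2 for Kmt2a, Med13 and Fbn1 for Kmt2b, and Ccdc88a and Brd1 for Kmt2e. Between members r was highest for Kmt2c with Kmt2d (0.947) and lowest for Kmt2a with Kmt2e (0.586). Even so, Kmt2d ranked only 297 of 4599 among the genes most alike to Kmt2c, and Kmt2c ranked 366 for Kmt2d.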

How the data were processed

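The submitters' files hold raw whole-number counts for every gene, deposited as a table for each gene part (5′ UTR, CDS, 3′ UTR) and a table of their sum. For the isoform libraries the authors added a signal (count over a size factor), a log2 fold change and an isoform class in each gene part, and the lengths of the parts, per the file headers; the authors' log2 values and classes are quoted only as theirs. The submitters' processing notes name mm10 as the build, with TopHat2 and DESeq2 as tools. The counting tool, strand handling and any collapsing by random primer bases were not given in the sources used here. Floors therefore cover counting error only. In all, 9 columns of per-sample values were not used.

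Libraries were grouped by their labels; the column headers number 2 inputs opposite to the titles, and columns were matched by primer number. Gene totals and parts were tested with edgeR 4.0.16 in R 4.3.3 (quasi-likelihood, robust, TMM, filterByExpr at min.count 10 and min.total.count 15, all 9 libraries in 1 fit), relative use of parts with diffSpliceDGE, and p-values were adjusted over all genes (Benjamini-Hochberg, threshold 0.05). CPM are scaled with the factors of the gene totals and given as mean ± SD. Where inputs were all 0, bounds use the mean CPM of 3 counts per input library. Scripts were tested on simulated data. DESeq2 1.42.0 and limma 3.58.1 served as alternatives, beside other scalings, filters, a replicate block, a loess trend on the summed length of the gene parts (span 0.5) and leaving out libraries.

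Members and lists were chosen with earlier results of these data known. Named genes were the members, listed genes that passed, up to 3 per list that did not (most counts), the 3 most alike by Pearson r of log2 CPM (prior count 2, mean of at least 50 CPM) and the 3 nearest in CDS length. Wdr5, Rbbp5 and Ash2l were named outside this rule. Of 22442 genes, 11718 had a symbol. Positions come from a RefSeq table of GRCm38.p6, the assembly of mm10.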

Additional observations from a re-analysis of the deposited data

How the results depend on the processing

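In the isoform comparison 0 of 5 members were called in gene totals (18 alternatives), in gene parts (12) and in relative use of parts (10), the replicate block included, and 0 listed genes in the 18 alternatives; this says little about stability, since no adjusted p of a member's gene total was under 0.576. Without the first library with exon 5, the log2 fold changes of Kmt2a and Kmt2d between the isoforms turned to 0.19 and 0.073 (over all leave-outs, -0.27 to 0.19 and -0.21 to 0.073). The members' median log2 fold change over input, 3.19 with exon 5 and 3.07 without it, was 2.83 and 2.73 with DESeq2 size factors, 2.50 and 2.59 with library size alone, 2.83 and 2.75 with DESeq2, and 3.77 and 3.43 with voom. It was 1.27 and 1.48 with the length trend removed, when the medians of all tested genes were -0.48 and -0.56. In that setting Kmt2e without exon 5 reached -0.39, Setd2 without exon 5 -0.044, Ash1l with exon 5 -0.040 and Dot1l without exon 5 -0.32. Without exon 5 the members' median was 3.28 with no filter and 2.78 with only the groups compared. With the replicate block by titles and by header numbers it was 3.45 and 3.38. The scaling moved all genes too, with medians of 1.03 for each isoform by TMM, 0.63 and 0.59 by DESeq2 size factors and 0.39 and 0.37 by library size. Leaving out libraries gave 2.78 to 3.70 with exon 5 and 2.89 to 3.82 without it.

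For the CDS the members' medians, 2.92 and 2.79, were 3.14 and 2.96 with the factors of gene totals, 3.18 and 3.30 with the replicate block, 2.98 without exon 5 with no filter, and 2.68 to 3.72 and 2.77 to 3.82 with libraries left out.

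The called listed genes, 9 with exon 5 and 10 without it, were 1 and 5 with DESeq2 size factors, 2 and 4 with library size alone, 16 and 17 with no filter, 18 with exon 5 by DESeq2, 0 and 0 with only the groups compared (fewer samples in the fit), 2 and 4 with the replicate block and also with header numbers (Bod1l and Setd5 with both isoforms, Kdm6a and Phf13 without exon 5), 1 and 2 with the length trend removed, and 1 to 29 in each comparison with libraries left out. The cause of these changes was not tested. With each gene's group mean subtracted from its log2 CPM, same-numbered libraries of the isoforms correlated at -0.0012, 0.031 and 0.039. The numbers were therefore not taken to pair them, and the header-number block was chosen after seeing the data. Depth limits the inputs, where 3 counts are 16.3 to 21.1 CPM.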
